A study of Arabidopsis thaliana and Arabidopsis lyrata subsp. lyrata with 12 samples.

Results

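The genes described here encode fatty acid desaturases, the enzymes that place double bonds in the acyl chains of plant membrane lipids. Members were taken from a list of gene identifiers by a rule that reads no measured value, and comprised FAD2 to FAD8 and SSI2, 8 of the 32678 loci in the *A. thaliana* table. Each had exactly 1 orthologue in the deposited *A. lyrata* annotation, so 8 of 32793 *A. lyrata* loci were members too. All 8 passed the filter on low counts in both species.

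RNA of rosette leaves was sequenced from *A. lyrata*, accession MN47, and from *A. thaliana*, accession Col-0, after 3 weeks of growth on soil at 21 °C (with cooler nights, by the study's methods) under long days, at the stage of 5 leaves. In each species, heat stress (HS) plants were held at 37 °C for 6 h, recovery plants were returned to control conditions for 48 h after the same HS, and control plants received no HS. Every group had 2 libraries, 12 in all, and no label tells whether they came from separate plants, so p-values measure the spread between these libraries only. Each species was represented by 1 accession, and the labels name no transgene or mutation. Controls were harvested at the end of HS, so recovery cannot be told apart from 48 h of further growth, and the same control libraries served the HS and the recovery comparison.

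Desaturases act in sequence and in separate compartments. SSI2 is a soluble enzyme of the plastid stroma that introduces the first double bond into stearate while it is bound to acyl carrier protein. Later steps take place on finished membrane lipids, through FAD2 (omega-6) and FAD3 (omega-3) in the endoplasmic reticulum and through FAD4 to FAD8 in the plastid. FAD4 acts on the palmitate of phosphatidylglycerol, FAD5 on that of monogalactosyldiacylglycerol, FAD6 is the plastid omega-6 enzyme, and FAD7 and FAD8 are the paired plastid omega-3 enzymes. More double bonds make membranes more fluid, and leaves of many plants are known to lower the share of trienoic fatty acids in warmth. FAD8 is known in *A. thaliana* as the cold-favoured member of its pair.

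In the TAIR10.1 assembly with RefSeq gene bounds, SSI2 (AT2G43710) lies at chr2:18119873-18122889 on the plus strand and FAD3 (AT2G29980) at chr2:12781524-12785190 on the minus strand. FAD2 (AT3G12120) lies at chr3:3860251-3863250 on the minus strand, FAD5 (AT3G15850) at chr3:5358601-5361185 and FAD7 (AT3G11170) at chr3:3499537-3502452, both on the plus strand. FAD4 (AT4G27030) lies at chr4:13571813-13573070 on the plus strand, FAD6 (AT4G30950) at chr4:15056975-15059846 on the minus strand and FAD8 (AT5G05580) at chr5:1664040-1666531 on the plus strand. The *A. lyrata* orthologues were AL4G40770 (SSI2), AL3G23370 (FAD2), AL4G23750 (FAD3), AL7G25290 (FAD4), AL3G28000 (FAD5), AL7G20770 (FAD6), AL3G22360 (FAD7) and AL6G15300 (FAD8).

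FAD7 and FAD8 were the closest relatives among the members. Their coding sequences shared 83.9% of 1299 aligned bases, against 69.6% of 1142 for FAD3 with FAD8 and 67.9% of 1150 for FAD3 with FAD7. No run identical between the transcripts of FAD7 and FAD8 was as long as an untrimmed read.

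The 250 bases before each RefSeq gene start in *A. thaliana* were searched on both strands for GAANNTTC and TTCNNGAA (paired cores of the heat shock element), CACGTG (the G-box) and CCGAC (the core of the C-repeat of cold-responsive promoters). GAANNTTC occurred in 9.55%, TTCNNGAA in 7.68%, CACGTG in 6.49% and CCGAC in 12% of 27443 windows of this length. Among the members, FAD6 held a GAANNTTC match that began 180 bases before the gene start and SSI2 a CCGAC match that began 115 bases before it. The windows of the other 6 members held none of these letters. Shown are the windows with a match (in capitals), that of FAD4, whose response differed most between the species, and that of FAD8, the member that fell in both. FAD8 is cut to the 110 bases that no other annotated gene covers. In TAIR10.1 they lie at chr4:15059847-15060096 (FAD6, minus strand), chr2:18119623-18119872 (SSI2, plus), chr4:13571563-13571812 (FAD4, plus) and chr5:1663930-1664039 (FAD8, plus). A match is a description of the letters and was not tested as a binding site.
FAD6: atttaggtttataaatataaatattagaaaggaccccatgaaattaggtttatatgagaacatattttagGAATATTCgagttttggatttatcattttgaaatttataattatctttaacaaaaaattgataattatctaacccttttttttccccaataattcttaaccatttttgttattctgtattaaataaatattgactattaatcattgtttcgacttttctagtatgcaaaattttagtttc
SSI2: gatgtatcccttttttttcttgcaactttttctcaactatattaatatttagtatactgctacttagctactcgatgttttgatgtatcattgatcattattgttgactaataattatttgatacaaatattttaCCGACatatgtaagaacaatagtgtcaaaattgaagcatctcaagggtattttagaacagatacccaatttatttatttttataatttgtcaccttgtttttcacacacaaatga
FAD4: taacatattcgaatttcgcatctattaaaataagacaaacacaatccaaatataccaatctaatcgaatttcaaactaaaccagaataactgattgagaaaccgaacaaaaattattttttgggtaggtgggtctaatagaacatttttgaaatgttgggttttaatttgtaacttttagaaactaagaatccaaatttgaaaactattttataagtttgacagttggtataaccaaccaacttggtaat
FAD8: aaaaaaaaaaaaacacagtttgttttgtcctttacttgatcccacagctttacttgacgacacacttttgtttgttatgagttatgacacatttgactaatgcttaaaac

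Library totals were 8246880 to 26046839 reads in *A. lyrata* and 9624503 to 45254555 in *A. thaliana*. Levels are given as CPM, the read count of a gene scaled to a library of 1000000 reads, with library totals adjusted by trimmed mean of M values (TMM) factors, and calls are those of edgeR's quasi-likelihood test with an adjusted p under 0.05 over all genes. All 4 heat check genes (HSFA2, HSP101, an HSP70 and a small HSP) rose in both species. TMM factors were 0.6716 and 0.7104 in the HS libraries of *A. thaliana*, against 1.116 to 1.257 in its other libraries, and 0.8865 to 1.067 in *A. lyrata*. With scaling by library totals alone, the median log2 fold change of all genes after HS was -0.25 instead of -0.01 in *A. lyrata* and -0.87 instead of -0.12 in *A. thaliana*. All marker levels that follow are CPM by library totals, without TMM factors, so they are not on the scale of the member levels. Seed and root markers stayed at or below 1.14 CPM in every library. Flower markers were at 0.154 to 0.364 CPM in HS and 0 to 0.306 CPM in control libraries of *A. lyrata*, and at 4.36 to 4.53 CPM in HS and 0.643 to 1.08 CPM in control libraries of *A. thaliana*. The leaf mesophyll markers (3 of 4 listed genes in *A. lyrata*, 4 of 4 in *A. thaliana*) summed to 12800 to 14400 CPM in HS and 26900 to 28900 CPM in control libraries of *A. lyrata*, and to 41400 CPM in both HS libraries and 41200 to 51700 CPM in control libraries of *A. thaliana*. The epidermal marker was at 12.6 to 13.2 CPM in HS and 58.4 to 59 CPM in control libraries of *A. lyrata*, and at 27.2 to 29.2 CPM in HS and 64.4 to 67.2 CPM in control libraries of *A. thaliana*. Guard cell markers were at 34.3 to 39.4 CPM in HS and 24.1 to 26.9 CPM in control libraries of *A. lyrata*, and at 13 to 15.4 CPM in HS and 30.4 to 37.1 CPM in control libraries of *A. thaliana*. The phloem marker was at 83.3 to 90.2 CPM in HS and 104 to 115 CPM in control libraries of *A. lyrata*, and at 31.3 to 31.9 CPM in HS and 92.2 to 162 CPM in control libraries of *A. thaliana*. The part of these shifts in the results below was not tested, and in whole leaves fewer cells of a type and less RNA per cell cannot be told apart.

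**Figure D1:**
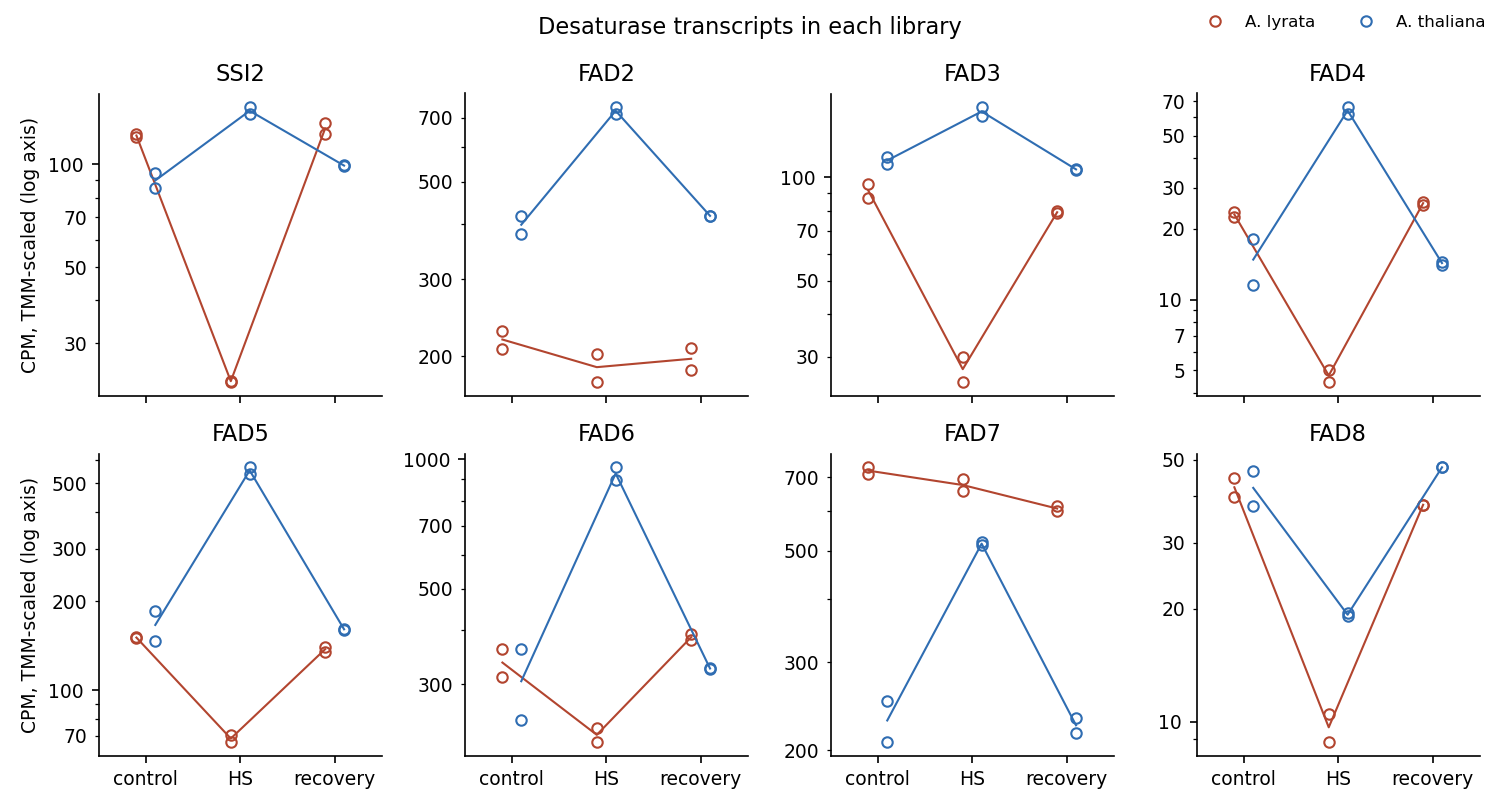
TMM-scaled CPM (log axis, separate scale per gene) of each desaturase in control, HS and recovery libraries of *A. lyrata* and *A. thaliana*. Points are the 2 libraries of a group and lines join group means. At HS, SSI2 sits at 23.1 to 23.3 CPM in *A. lyrata* and at 140 to 147 CPM in *A. thaliana*, while FAD8 is at its lowest in both.

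In *A. lyrata*, 6 of 8 desaturases fell after HS and none rose, whereas in *A. thaliana* 7 rose and 1, FAD8, fell. In *A. lyrata* 38.7% of 20779 genes tested were called lower and 37.9% higher, and in *A. thaliana* 39.5% of 18536 were called lower and 34.9% higher. The median log2 fold change of the members was -1.42 in *A. lyrata* and 1.02 in *A. thaliana*, against medians of -0.01 and -0.12 over all genes tested in each. DESeq2 gave the same counts of members in both species. In *A. lyrata* no member rose at an unadjusted p under 0.05 or by DESeq2 either.

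SSI2, which makes the oleate that the omega-6 and omega-3 desaturases go on to desaturate, had the strongest decrease in *A. lyrata*. It had 23.3 and 23.1 CPM in HS libraries of *A. lyrata*, against 123 and 120 CPM in its control libraries, a log2 fold change of -2.39 ± 0.08 (SE, adjusted p = 5.36e-14). In *A. thaliana*, SSI2 had 140 and 147 CPM in HS libraries, against 85.3 and 94.2 CPM in control libraries (log2 fold change 0.68 ± 0.11, adjusted p = 0.000634). With TMM scaling the HS pair thus lay below the control pair in *A. lyrata* and above it in *A. thaliana*. By library totals SSI2 of *A. thaliana* did not rise (log2 fold change -0.07, edgeR adjusted p = 0.503).

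Of the enzymes of the endoplasmic reticulum, FAD3 fell in *A. lyrata* and FAD2 did not pass the test there, while both rose in *A. thaliana*. FAD2 had 175 and 203 CPM in HS libraries of *A. lyrata*, against 229 and 208 CPM in control libraries (log2 fold change -0.20 ± 0.10, adjusted p = 0.0647). In *A. thaliana* it had 712 and 739 CPM in HS libraries, against 381 and 417 CPM in control libraries (0.86 ± 0.12, adjusted p = 0.000296). With TMM scaling the nearest FAD2 libraries of the 2 *A. lyrata* groups were only a few CPM apart, whereas those of *A. thaliana* were far apart. FAD3, which makes the trienoic chains outside the plastid, had 25.4 and 29.9 CPM in HS libraries of *A. lyrata*, against 87.3 and 95.6 CPM in control libraries (-1.70 ± 0.09, adjusted p = 1.39e-11). In *A. thaliana*, FAD3 had 151 and 160 CPM in HS libraries, against 109 and 115 CPM in control libraries (0.47 ± 0.10, adjusted p = 0.00354), the smallest of the increases.

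The plastid palmitate desaturases moved strongly in opposite directions. FAD4 had 4.46 and 5.03 CPM in HS libraries of *A. lyrata* (34 and 116 reads), against 23.6 and 22.5 CPM in control libraries (-2.24 ± 0.13, adjusted p = 3.68e-11). In *A. thaliana* FAD4 had 61.8 and 66 CPM in HS libraries, against 11.5 and 18.1 CPM in control libraries (2.10 ± 0.20, adjusted p = 3.95e-05), a 4.27-fold increase and the largest of the family. The HS levels of FAD4 were thus the lowest of its 6 libraries in *A. lyrata* and the highest of its 6 in *A. thaliana*. FAD5 had 66.8 and 70.4 CPM in HS libraries of *A. lyrata*, against 151 and 150 CPM in control libraries (-1.13 ± 0.08, adjusted p = 3.92e-10). In *A. thaliana* FAD5 had 539 and 566 CPM in HS libraries, against 147 and 185 CPM in control libraries (1.74 ± 0.14, adjusted p = 1.68e-05). The 3' part of FAD4 overlaps VPS22 on the opposite strand over 186 bp, and reads of the 2 genes cannot be told apart there because the libraries kept no strand; VPS22 itself fell by 0.39 on the log2 scale in *A. thaliana* (adjusted p = 0.0262).

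The plastid omega-6 enzyme FAD6 fell moderately in *A. lyrata* and rose in *A. thaliana*. It had 220 and 237 CPM in HS libraries of *A. lyrata*, against 312 and 361 CPM in control libraries (-0.56 ± 0.10, adjusted p = 7.47e-05). In *A. thaliana* it had 895 and 957 CPM in HS libraries, against 248 and 361 CPM in control libraries (1.61 ± 0.18, adjusted p = 0.000115), which made it the most abundant member there. The 2 *A. thaliana* control libraries lay further apart for FAD6 than its HS libraries did relative to their level.

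Of the plastid omega-3 pair, FAD8 fell in both species and FAD7 in neither with TMM scaling; the difference between the 2 genes itself was not tested. FAD7 had 657 and 693 CPM in HS libraries of *A. lyrata*, against 732 and 710 CPM in control libraries, which did not pass the test (-0.09 ± 0.09, adjusted p = 0.370). FAD8 had 10.5 and 8.84 CPM in HS libraries of *A. lyrata*, against 39.8 and 44.6 CPM in control libraries (-2.18 ± 0.11, adjusted p = 9.83e-12). So FAD7 stayed among the most abundant members in hot *A. lyrata* leaves while FAD8 was 4.52-fold lower. In *A. thaliana* FAD7 had 512 and 520 CPM in HS libraries, against 208 and 251 CPM in control libraries (1.17 ± 0.13, adjusted p = 9.56e-05). FAD8 of *A. thaliana* had 19.5 and 19.1 CPM in HS libraries, against 37.6 and 46.5 CPM in control libraries (-1.13 ± 0.13, adjusted p = 0.000134). FAD8 was the only member that fell in *A. thaliana*, and with scaling by library totals FAD3 fell as well (-0.27, adjusted p = 0.0235). FAD8 overlaps PAI2, a tryptophan synthesis gene on the opposite strand, over 61 bp, and PAI2 had a log2 fold change of 0.01 (adjusted p = 0.964).

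In *A. thaliana* the scaling set how many members rose. By library totals 4 members rose (FAD4, FAD5, FAD6 and FAD7) and 2 fell, and 3409 of all genes were called higher and 11104 lower, against 6471 higher and 7319 lower with TMM. SSI2 then had a log2 fold change of -0.07 (adjusted p = 0.503) and FAD2 one of 0.12 (adjusted p = 0.279). Relative to the median of all genes the values hardly moved: SSI2 stood 0.80 above the median with TMM and 0.81 above it by library totals, FAD2 0.98 and 0.99, FAD3 0.59 and 0.60, and FAD4 2.21 and 2.23 on the log2 scale. In *A. lyrata* library totals left all 6 decreases and added FAD2 (-0.43, adjusted p = 0.000177) and FAD7 (-0.32, adjusted p = 0.00325). Beside them, 46.3% of all *A. lyrata* genes were called lower and 30.7% higher by library totals, with a median of -0.25. Relative to that median FAD2 was at -0.18 and FAD7 at -0.07 on the log2 scale.

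**Figure D2:**
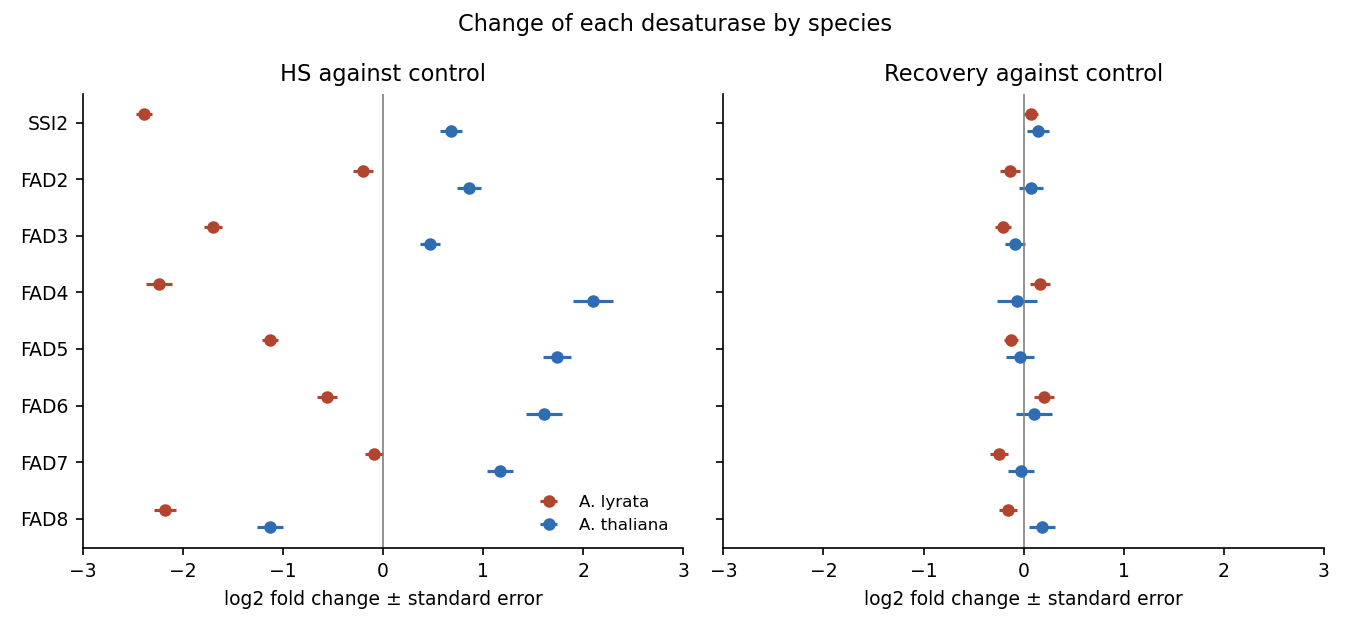
Log2 fold change ± standard error of each desaturase, for HS against control (left) and recovery against control (right), in *A. lyrata* and *A. thaliana*. After HS the species lie apart for every gene, from -4.30 for FAD4 to -0.99 for FAD8 as the difference *A. lyrata* minus *A. thaliana*, and after recovery all values lie within 0.25 of 0.

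The difference between the species was tested directly, as the log2 fold change after HS in *A. lyrata* minus that in *A. thaliana*, in 1 fit of 17743 one-to-one gene pairs. All 8 desaturases had a lower response in *A. lyrata*, beside 30.6% of all pairs called lower and 32% called higher. No member was called higher by edgeR, DESeq2 or at an unadjusted p under 0.05. The median difference of the members was -2.14, against 0.05 over all pairs. FAD4 differed most, by -4.30 ± 0.26 (SE, adjusted p = 7.75e-09), and only 1.45% of all pairs had a difference as low or lower. SSI2 followed with -3.03 ± 0.14 (adjusted p = 9.86e-10) and FAD5 with -2.83 ± 0.17 (adjusted p = 7.78e-09), where 3.31% and 4.02% of pairs were as low or lower. FAD3 (-2.15 ± 0.15, adjusted p = 3.23e-08) and FAD6 (-2.13 ± 0.22, adjusted p = 1.63e-06) were nearly equal. FAD7 (-1.23 ± 0.17, adjusted p = 2.01e-05), FAD2 (-1.03 ± 0.17, adjusted p = 9.17e-05) and FAD8 (-0.99 ± 0.19, adjusted p = 0.000373) differed least, and the share of pairs as low or lower was 19.1% for FAD7, 22.8% for FAD2 and 23.6% for FAD8. All 8 calls also held with library totals and without any single library.

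The combination of a decrease in *A. lyrata* and an increase in *A. thaliana* occurred in 5 members, SSI2, FAD3, FAD4, FAD5 and FAD6. Over the 15848 pairs tested in both species it occurred in 8.3%, and the opposite combination in 8.54%. By library totals it occurred in 4 members, FAD4, FAD5, FAD6 and FAD7, and in 3.83% of pairs. FAD3 and FAD8 then fell in both species, as did 35.6% of pairs. With TMM scaling FAD8 alone fell in both species, as did 21.8% of pairs. FAD2 and FAD7 rose in *A. thaliana* and did not pass the test in *A. lyrata*. Summed over the 8 members, reads amounted to 1180 and 1270 CPM in HS libraries of *A. lyrata*, against 1700 and 1710 CPM in its control libraries. The same sum was 3030 and 3170 CPM in HS libraries of *A. thaliana*, against 1230 and 1490 CPM in its control libraries. By library totals the *A. thaliana* sum was 2150 and 2130 CPM in HS libraries, against 1470 and 1660 CPM in control libraries.

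After 48 h of recovery the desaturases were close to control in both species. By edgeR no member was called higher or lower against control in *A. thaliana* (0 at an unadjusted p under 0.05, 0 by DESeq2), where 1.34% of genes were called higher and 0.766% lower. In *A. lyrata* none was called by edgeR either, beside 7.65% of genes higher and 4.73% lower, but FAD3 and FAD7 were lower at an unadjusted p under 0.05 and DESeq2 called FAD7 lower (adjusted p = 0.0245). FAD7 of *A. lyrata* had 614 and 598 CPM in recovery libraries, against 732 and 710 CPM in control libraries (-0.25 ± 0.09, edgeR adjusted p = 0.0964). Both recovery values were below both control values. FAD3 of *A. lyrata* had 79.7 and 78.6 CPM in recovery libraries, against 87.3 and 95.6 CPM in control libraries (-0.21 ± 0.08, adjusted p = 0.112). The other members of *A. lyrata* lay between -0.16 ± 0.09 (FAD8) and 0.20 ± 0.10 (FAD6), and those of *A. thaliana* between -0.09 ± 0.10 (FAD3) and 0.18 ± 0.13 (FAD8). The species difference after recovery was called for no member (0 at an unadjusted p under 0.05, 0 by DESeq2), beside 5.99% of pairs called higher and 3.41% lower, and ranged from -0.27 ± 0.17 (FAD8) to 0.30 ± 0.24 (FAD4).

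The *A. thaliana* recovery comparison depended on its 2 control libraries. Without control replicate 1, FAD4 (-0.34) and FAD5 (-0.20) were called lower, and without control replicate 2, SSI2 (0.21), FAD6 (0.39) and FAD8 (0.33) were called higher. In *A. lyrata*, FAD7 was called lower (-0.25) without either HS replicate. The species difference after recovery gained FAD4 (0.59) and FAD6 (0.43) without *A. thaliana* control replicate 1, and FAD7 (-0.32) and FAD8 (-0.47) without control replicate 2.

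Set against HS itself, recovery brought 6 members of *A. lyrata* up and none down (39.1% of genes were called higher and 38.3% lower), and in *A. thaliana* 1 up and 7 down (39.2% higher, 34.1% lower). In *A. lyrata*, SSI2 had 132 and 123 CPM in recovery libraries, against 23.3 and 23.1 CPM in HS libraries (2.46 ± 0.08, adjusted p = 3.34e-14). FAD4 had 26.1 and 25.4 CPM in recovery libraries of *A. lyrata*, against 4.46 and 5.03 CPM in HS libraries (2.40 ± 0.12, adjusted p = 8.24e-12). FAD8 of *A. lyrata* had 37.9 CPM in both recovery libraries, against 10.5 and 8.84 CPM in HS libraries (2.01 ± 0.11, adjusted p = 2.33e-11). All 3 were thus clear of their HS range, as were FAD3 (1.49 ± 0.09), FAD5 (1.00 ± 0.08) and FAD6 (0.75 ± 0.10), whose recovery libraries held 135 to 140 CPM for FAD5 and 379 to 392 CPM for FAD6. FAD2 (0.06 ± 0.10, adjusted p = 0.569) and FAD7 (-0.16 ± 0.09, adjusted p = 0.141) did not pass, and DESeq2 called FAD7 lower (-0.18, adjusted p = 0.0316). By library totals edgeR called FAD2 higher (0.26, adjusted p = 0.0106), beside 45.8% of all genes higher and 32.4% lower. Relative to the median of all genes FAD2 was then at 0.04. No member of *A. lyrata* was lower at an unadjusted p under 0.05 by edgeR.

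In *A. thaliana*, FAD4 had 14.1 and 14.5 CPM in recovery libraries, against 61.8 and 66 CPM in HS libraries (-2.16 ± 0.20, adjusted p = 4.3e-05). FAD5 had 161 and 160 CPM in recovery libraries, against 539 and 566 CPM in HS libraries (-1.78 ± 0.14, adjusted p = 1.72e-05). FAD6 had 325 and 327 CPM in recovery libraries, against 895 and 957 CPM in HS libraries (-1.51 ± 0.18, adjusted p = 0.000171). The HS and recovery libraries of these plastid enzymes lay far apart. FAD7 (-1.20 ± 0.13), FAD2 (-0.80 ± 0.12), FAD3 (-0.56 ± 0.10) and SSI2 (-0.53 ± 0.11) fell less, and FAD8 rose to 47.7 CPM in both recovery libraries, against 19.5 and 19.1 CPM in HS libraries (1.31 ± 0.13, adjusted p = 7.02e-05). By library totals 3 members were higher and 4 lower, beside 63.4% of all genes higher and 15.4% lower. SSI2 (0.33, adjusted p = 0.0106) and FAD3 (0.30, adjusted p = 0.0156) were among those higher, while the median of all genes was 0.99 instead of 0.13. Relative to the median by library totals, SSI2 was at -0.67 and FAD3 at -0.69.

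Levels of different genes were compared as CPM per kilobase of merged exon (RPKM), calculated from the TMM-scaled counts. In control libraries of *A. lyrata* FAD7 was the most abundant desaturase at 417 ± 8.89 RPKM (SD, n = 2), followed by FAD6 (196 ± 20.2), FAD2 (139 ± 9.39), FAD5 (112 ± 0.551), SSI2 (68.8 ± 1.53), FAD3 (61.1 ± 3.94), FAD8 (26.0 ± 2.08) and FAD4 (20.2 ± 0.651). In control libraries of *A. thaliana* the order was FAD6 (167 ± 44.0 RPKM), FAD2 (158 ± 9.90), FAD7 (110 ± 14.4), FAD5 (92.7 ± 14.9), FAD3 (64.1 ± 2.60), SSI2 (48.8 ± 3.42), FAD8 (23.6 ± 3.53) and FAD4 (12.9 ± 4.03), in which FAD6 and FAD2, and FAD7 and FAD5, did not differ beyond their spread. Both species thus had FAD8 and FAD4 at the bottom, and they differed in the place of FAD7. FAD2 changed places with FAD6 in *A. thaliana* control libraries when coding length was used, since the RefSeq exons of FAD2 merge to 2528 bp with a coding part of 1152 bp. At HS the order in *A. lyrata* still began with FAD7 (391 ± 14.9 RPKM), FAD6 (133 ± 7.16) and FAD2 (120 ± 12.4) and ended with FAD8 (5.95 ± 0.718) and FAD4 (4.16 ± 0.353). At HS in *A. thaliana* FAD6 led (508 ± 24.0 RPKM), before FAD5 (309 ± 10.9), FAD2 (287 ± 7.50) and FAD7 (247 ± 2.83), and FAD8 was last (10.8 ± 0.159) below FAD4 (55.6 ± 2.64). By coding length FAD2 came before FAD5 there.

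The balance between members of a step shifted with HS in both species, as values per kb of exon. FAD8 made up 1.67% and 1.34% of FAD7 plus FAD8 in HS libraries of *A. lyrata*, against 5.47% and 6.26% in control libraries. In *A. thaliana* it made up 4.26% and 4.11% in HS libraries, against 17.5% and 17.8% in control libraries. The share was thus lower at HS in all 4 HS libraries, and in recovery it was 6.16% and 6.31% in *A. lyrata* and 20.5% and 19.4% in *A. thaliana*. With 2 libraries against 2, an exact two-sided permutation test cannot go below p = 0.333, so the shares are given as values.

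The plastid enzymes FAD7 and FAD8 together held 95.8% and 95.3% of the omega-3 desaturase transcripts (FAD3, FAD7 and FAD8, per kb of exon) in HS libraries of *A. lyrata*, against 88.5% and 87.3% in control libraries. In *A. thaliana* they held 74.7% and 74% in HS libraries, against 66% and 68.9% in control libraries. The plastid part of the omega-3 step was thus larger at HS in both species. For the omega-6 step, FAD6 held 53.3% and 51.6% of FAD6 plus FAD2 in HS libraries of *A. lyrata*, against 55.4% and 61.3% in control libraries. In *A. thaliana* FAD6 held 63.6% and 64.3% in HS libraries, against 47.4% and 54.6% in control libraries. Here the HS libraries lay below the control libraries in *A. lyrata* and above them in *A. thaliana*.

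**Figure D3:**
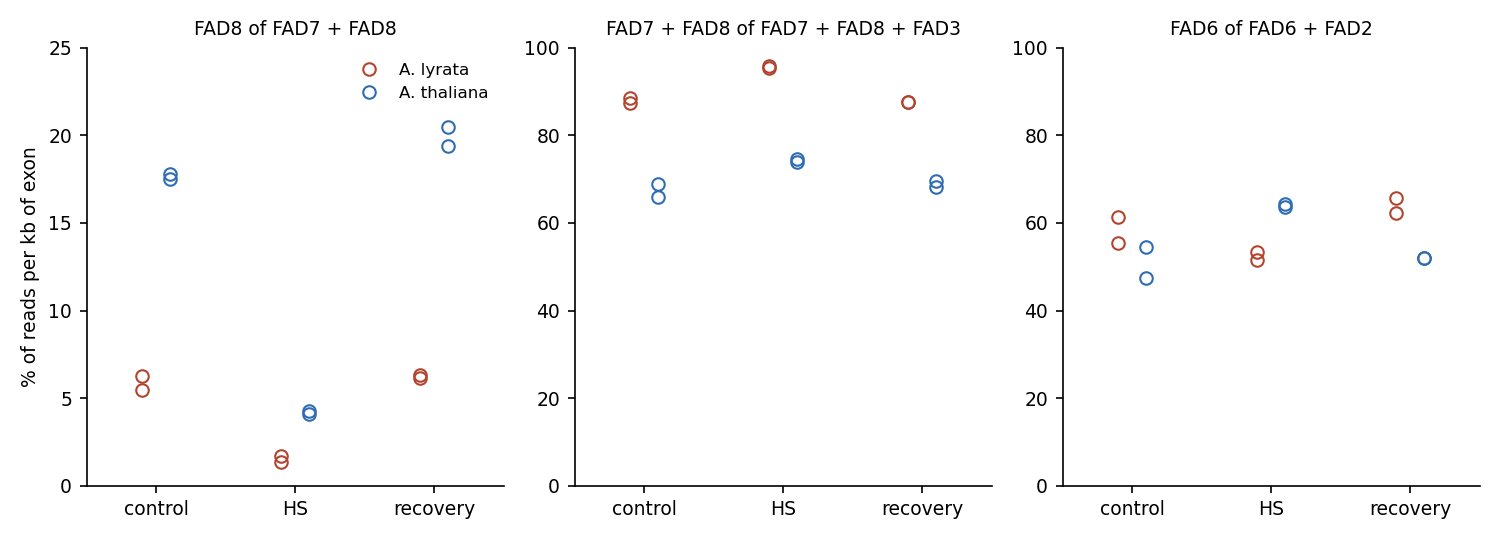
Share in percent, per kb of merged exon, of FAD8 in FAD7 plus FAD8 (left, axis to 25%), of FAD7 plus FAD8 in all omega-3 desaturase transcripts (middle) and of FAD6 in FAD6 plus FAD2 (right), with 1 point per library of *A. lyrata* and *A. thaliana*. FAD8 falls to between 1.34% and 4.26% at HS, and the plastid omega-3 share is highest at HS in both species.

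For each member, the other gene pair with the most similar pattern over the 12 libraries was sought among 15848 pairs, by the root mean square difference of log2 CPM centred on the controls of each species. For SSI2 it was AT2G35040 (0.09), for FAD2 the RNA-directed DNA methylation factor FDM5 (0.08) and for FAD3 the GDP-mannose epimerase GME (0.12). For FAD4 it was AT3G48540 (0.19), for FAD5 the vitamin B6 synthesis protein RSR4 (0.09), and for FAD6 the receptor kinase gene FER (0.10). FAD7 was nearest to the cullin CUL4 (0.09) and FAD8 to the isoleucyl-tRNA synthetase OVA2 (0.09). FAD4 had the least close neighbour of the 8. After HS that neighbour, AT3G48540, had log2 fold changes of -2.70 in *A. lyrata* and 2.07 in *A. thaliana*.

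Genes of plastid fatty acid synthesis, which make the chains that desaturases act on, were counted beside the shares of all genes given above (38.7% lower and 37.9% higher in *A. lyrata*, 39.5% lower and 34.9% higher in *A. thaliana*). With TMM scaling, of 19 tested genes in each species, 3 rose and 12 fell in *A. lyrata* (median log2 fold change -0.63), and 10 rose and 4 fell in *A. thaliana* (median 0.36). The species difference was called lower for 12 and higher for 3 of 18 pairs (median -1.25), beside 30.6% and 32% of all pairs. By library totals 3 rose and 9 fell in *A. thaliana* (median -0.39), beside 18.4% of all genes higher and 59.9% lower. The species difference was then lower for 10 and higher for 5 pairs, beside 3544 of 17743 pairs lower and 45.3% higher. CAC3, a subunit of the acetyl-CoA carboxylase that commits carbon to fatty acids, had 55.9 and 57.7 CPM in HS libraries of *A. lyrata*, against 226 and 241 CPM in control libraries (-2.04 ± 0.08, adjusted p = 3.44e-13). In *A. thaliana* CAC3 had 415 and 421 CPM in HS libraries, against 137 and 194 CPM in control libraries (1.34 ± 0.17, adjusted p = 0.000187). The condensing enzyme KASI was lower in *A. lyrata* (-1.91 ± 0.08) and higher in *A. thaliana* (0.43 ± 0.13), and the enoyl reductase MOD1 was lower in *A. lyrata* (-1.93 ± 0.08) with 0.11 ± 0.10 in *A. thaliana* (adjusted p = 0.353). KAS III, which starts the chain, fell in both species (-1.13 ± 0.13 in *A. lyrata*, -1.51 ± 0.13 in *A. thaliana*). The thioesterase FaTA, which releases finished chains from the carrier protein, rose in both (1.92 ± 0.11 in *A. lyrata*, 1.83 ± 0.17 in *A. thaliana*), and the dehydratase gene AT5G10160 fell in *A. lyrata* (-0.63 ± 0.10) and rose in *A. thaliana* (1.44 ± 0.13).

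Genes of membrane lipid assembly and remodelling include those that build the substrates of FAD2 to FAD8. With TMM scaling, 7 were higher and 11 lower of 22 in *A. lyrata* (median -0.19), beside 37.9% of all genes higher and 38.7% lower. In *A. thaliana* 13 were higher and 6 lower of 22 (median 0.69), beside 34.9% of all genes higher and 39.5% lower. By library totals 6 were higher and 10 lower in *A. thaliana* (median -0.06), beside 18.4% and 59.9% of all genes. With TMM scaling the species difference was lower for 16 and higher for 3 of the 22 pairs (median -1.07). Of all pairs 30.6% were lower and 32% higher. By library totals that difference was lower for 12 and higher for 4 pairs (median -0.58), beside 20% of all pairs lower and 45.3% higher. The plastid acyltransferase ATS1 fell in both species (-2.65 ± 0.10 in *A. lyrata*, -0.67 ± 0.13 in *A. thaliana*). ABCI14 (TGD1), a subunit of the lipid importer of the chloroplast envelope, fell in *A. lyrata* (-1.75 ± 0.09) and rose in *A. thaliana* (0.59 ± 0.11). The galactolipid synthase gene DGD1 and the sulfolipid gene SQD1 rose in both species, DGD1 by 0.46 ± 0.09 in *A. lyrata* and 1.91 ± 0.17 in *A. thaliana*, and SQD1 by 0.54 ± 0.08 in *A. lyrata* and 2.25 ± 0.16 in *A. thaliana*. PDAT, which moves acyl chains into storage lipid, rose by 1.35 ± 0.08 in *A. lyrata* and 1.00 ± 0.15 in *A. thaliana*, and the lipid importer gene PDE320 (TGD4) had 0.02 ± 0.11 (adjusted p = 0.887) in *A. lyrata* and rose by 1.37 ± 0.12 in *A. thaliana*.

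Electron donors of the desaturases were counted in the same way. With TMM scaling, of 10 genes 6 rose and 3 fell in *A. lyrata* (median 0.29), beside 37.9% of all genes higher and 38.7% lower. In *A. thaliana* 7 rose and 3 fell (median 0.45), beside 34.9% of all genes higher and 39.5% lower. The species difference was called higher for 2 and lower for 5 of the 10 pairs, beside 32% and 30.6% of all pairs. By library totals 4 rose and 3 fell in *A. lyrata*, beside 30.7% of all genes higher and 46.3% lower. In *A. thaliana* 2 rose and 5 fell by library totals, beside 18.4% of all genes higher and 59.9% lower. The species difference was then higher for 5 and lower for 4, beside 45.3% of all pairs higher and 3544 of 17743 lower. FD1, a minor leaf ferredoxin, had 734 and 980 CPM in HS libraries of *A. lyrata*, against 152 and 157 CPM in control libraries (2.47 ± 0.13, adjusted p = 9.39e-12). In *A. thaliana* FD1 had 2740 and 2950 CPM in HS libraries, against 181 and 195 CPM in control libraries (3.92 ± 0.15, adjusted p = 6.99e-07). FED A (FD2), the main leaf ferredoxin, fell in both species (-1.95 ± 0.10 in *A. lyrata*, -0.44 ± 0.15 in *A. thaliana*). The ferredoxin reductase FNR2 fell in both (-1.42 ± 0.10 in *A. lyrata*, -1.85 ± 0.14 in *A. thaliana*). Of the donors in the endoplasmic reticulum, the cytochrome gene CB5-B fell in both (-3.33 ± 0.18 in *A. lyrata*, -0.77 ± 0.28 in *A. thaliana*). The other cytochrome genes of the list rose in both species with TMM scaling. In *A. lyrata* CB5-D rose by 1.26 ± 0.08, CB5-A by 1.37 ± 0.17 and CB5-E by 0.34 ± 0.09. In *A. thaliana* CB5-D rose by 0.40 ± 0.11, CB5-A by 0.77 ± 0.18 and CB5-E by 1.05 ± 0.17. The cytochrome reductase CBR had 0.08 ± 0.08 in *A. lyrata* (adjusted p = 0.347) and rose by 1.24 ± 0.12 in *A. thaliana*.

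Desaturases outside the FAD set were counted with TMM scaling beside 38.7% of all genes lower and 37.9% higher in *A. lyrata*. In *A. thaliana* 39.5% of all genes were lower and 34.9% higher. Of those tested, 3 rose and 7 fell of 10 in *A. lyrata* (median -1.51), and 2 rose and 8 fell of 13 in *A. thaliana* (median -0.52). By library totals 10 of the 13 fell in *A. thaliana* and 0 rose, beside 59.9% of all genes lower and 18.4% higher. The species difference with TMM scaling was called lower for 3 and higher for 3 of 13 pairs, beside 30.6% and 32% of all pairs. ADS2, an acyl-lipid desaturase related to FAD5, had 10.4 and 12.4 CPM in HS libraries of *A. lyrata*, against 32.8 and 37.4 CPM in control libraries (-1.59 ± 0.11, adjusted p = 6.41e-10). In *A. thaliana* ADS2 had 116 and 127 CPM in HS libraries, against 220 and 206 CPM in control libraries (-0.81 ± 0.11, adjusted p = 0.000287). ADS2 thus fell in both species where FAD5 fell in *A. lyrata* alone. SLD1, a sphingolipid desaturase, fell in *A. lyrata* (-2.44 ± 0.08) with 0.06 ± 0.16 in *A. thaliana* (adjusted p = 0.759). AT1G06360, of the ADS family, fell in both species (-5.34 ± 0.17 in *A. lyrata*, -2.50 ± 0.52 in *A. thaliana*). AT5G16230, of the same soluble family as SSI2, fell in both as well (-2.05 ± 0.32 in *A. lyrata*, -3.85 ± 0.71 in *A. thaliana*), at no more than 3.09 CPM in any HS or control library. AT2G22890, a paralogue of FAD4, rose in *A. lyrata* (1.32 ± 0.13) and fell in *A. thaliana* (-3.78 ± 0.61), the reverse of FAD4 in each species. Its level in *A. thaliana* was near the floor, at 0.439 and 0.0658 CPM in HS libraries, against 2.05 and 2.08 CPM in control libraries. The size of that decrease is therefore uncertain.

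**Figure D4:**
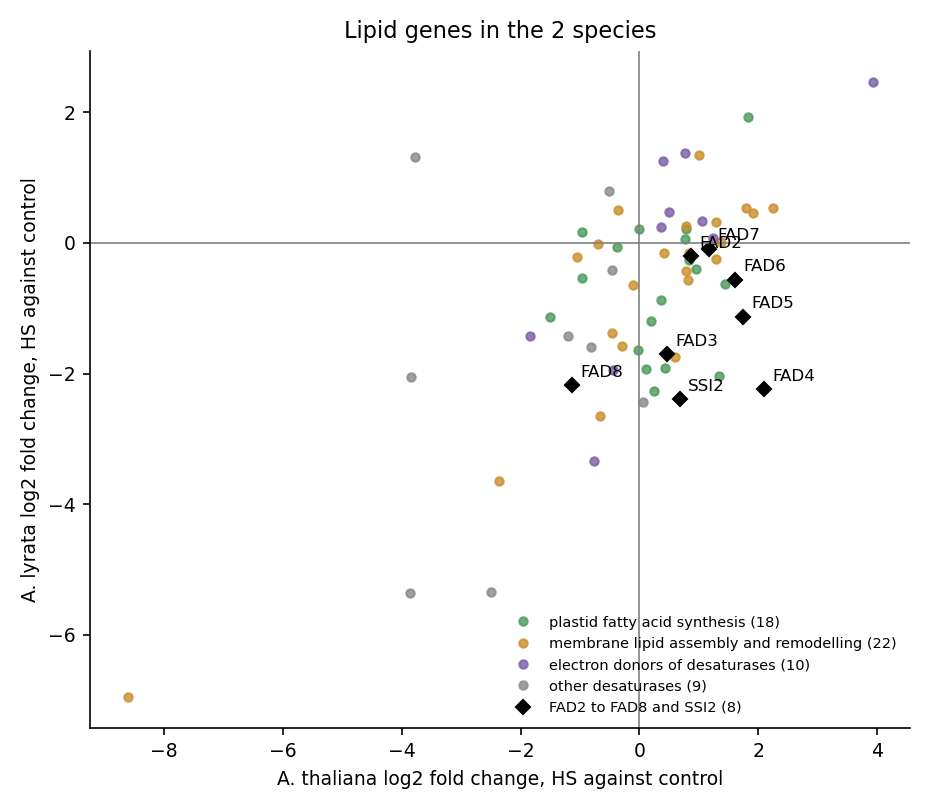
Log2 fold change after HS in *A. lyrata* (vertical) against that in *A. thaliana* (horizontal), for the 8 desaturases (black diamonds) and genes of 4 lipid lists tested in both species (circles). SSI2, FAD3, FAD4, FAD5 and FAD6 lie at the lower right, where *A. lyrata* is lower and *A. thaliana* higher than control. AT2G22890 lies at 1.32 and -3.78 at the upper left, with no more than 2.08 CPM in any HS or control library of *A. thaliana*.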

How the data were processed

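The authors made strand non-specific libraries from total RNA, cleaned single-end reads by FASTX, aligned each species to its own genome (TAIR10, or the *A. lyrata* v1.0 assembly) using tophat2 and obtained gene-wise counts from Qualimap. These deposited counts were analysed without prior normalization. How reads with several mapping positions entered the counts was not given in the sources used here. The 12 columns headed RPKM were not used, since only the first control library of each species was divided by gene length. Library totals were 8246880 to 45254555 reads.

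Counts were analysed with edgeR 4.0.16 in R 4.3.3 after filterByExpr (minimum count 10, minimum total count 15) and TMM scaling. Each species had its own fit of 6 libraries, with condition as the only factor (3 residual degrees of freedom), and the species difference was the interaction in a fit of 17743 one-to-one pairs over 12 libraries (6 residual degrees of freedom). P-values of the quasi-likelihood test were adjusted by Benjamini-Hochberg over all genes tested, with a threshold of 0.05, and the standard error was the log2 fold change divided by the square root of F. Fits were tested on simulated data. Per length values used merged exons of RefSeq TAIR10.1, to which 31912 *A. thaliana* loci matched, or of the deposited *A. lyrata* annotation. Sequences are from RefSeq TAIR10.1, and alignment identity was calculated with Biopython 1.88.

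The text names all 8 members, the nearest pair of each and up to 3 genes per lipid list with the smallest p after HS in each species. Named besides these were the other cytochrome genes among the electron donors. The rule reads no measured value, but members and lists were chosen with earlier results of these data known. Library totals for the lists, the combined calls and the summed reads were added after the data had been seen. Other alternatives were RLE size factors, DESeq2 1.42.0, other filters, library totals, a replicate block, coding length and omission of each library.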

Additional observations from a re-analysis of the deposited data

Results flagged for a closer look

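The responses of the 2 species to HS differed for each desaturase by the interaction test of edgeR over 17743 pairs. The log2 difference, *A. lyrata* minus *A. thaliana*, was -3.03 for SSI2 and -1.03 for FAD2. It was -2.15 for FAD3, -4.30 for FAD4 and -2.83 for FAD5. It was -2.13 for FAD6, -1.23 for FAD7 and -0.99 for FAD8. Groups of 2 libraries were too small for a test of single outlying libraries.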

How the results depend on the processing

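Of 390 values of single genes and shares recomputed under alternatives other than omitted libraries, 366 counted as unchanged. For a gene this meant the same direction and side of the threshold, and for a share a move below the spread of its libraries. By coding length the mean FAD8 share of FAD7 plus FAD8 was 15.8% in control, 3.69% in HS and 17.9% in recovery libraries of *A. thaliana* and 6.02% in recovery libraries of *A. lyrata*, each moved by more than the spread of its libraries. Library totals gave 4 desaturases higher and 2 lower after HS in *A. thaliana*, with 3409 of all genes higher and 11104 lower, and reversed SSI2 (-0.07) and FAD3 (-0.27). The same scaling gave 3 higher and 4 lower in *A. thaliana* recovery against HS (all genes 11747 and 2852), with SSI2 at 0.33, FAD2 at 0.06 and FAD3 at 0.30, and reversed FAD7 of *A. lyrata* (0.05) in that comparison. In *A. thaliana* recovery against control it reversed FAD3 (0.03), FAD4 (0.06), FAD5 (0.07) and FAD7 (0.08) and called 673 genes higher. The species difference by library totals had 3544 pairs lower after HS, and 653 higher and 1609 lower after recovery, with FAD6 at -0.01; without a filter, SSI2 was at 0.00. For *A. thaliana* recovery against control, DESeq2 called 417 genes higher and 425 lower, RLE 220 lower, no filter 913 and 830. For *A. lyrata* recovery, DESeq2 called 827 higher and 374 lower with 1 desaturase lower, and 1 desaturase lower against HS.

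No pairing of libraries by replicate number was detected. Correlations of replicate differences lay between -0.049 and 0.026 in *A. thaliana* and between -0.0013 and 0.11 in *A. lyrata*. The labels do not say whether libraries of the same replicate number were handled together. With a replicate block, 60 genes were higher and 30 lower in *A. thaliana* recovery against control, and FAD2 of *A. lyrata* passed after HS (-0.21, adjusted p = 0.0498). FAD2 also passed with at least 10 reads in every library (adjusted p = 0.0293).

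Without single libraries, *A. thaliana* recovery against control gave 0 to 3 desaturases higher and 0 to 2 lower (all genes 1 to 3133 and 0 to 3456), with FAD4 at -0.34 to 0.30, FAD5 at -0.20 to 0.12, FAD6 at -0.15 to 0.39 and FAD7 at -0.16 to 0.10. *A. lyrata* recovery gave 0 to 1 lower (all genes 557 to 1835 higher and 280 to 1204 lower), and against HS FAD2 lay at -0.04 to 0.16. The species difference after recovery gave 0 to 2 higher and 0 to 2 lower (all pairs 362 to 2913 and 170 to 2431), with SSI2 at -0.11 to 0.09, FAD3 at -0.13 to 0.01, FAD4 at -0.11 to 0.59, FAD5 at -0.23 to 0.16, FAD6 at -0.17 to 0.43 and FAD7 at -0.32 to 0.00. The cause of these changes was not tested. FAD4 of *A. lyrata* had only 34 reads in 1 HS library, and a difference below the spread of 2 libraries was not detectable.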
